A study of Mus musculus with 24 samples.

Results

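Of the candidate enhancers listed for normal mouse granulocyte-monocyte progenitors (GMP), 1003 were also listed, by position, in both of the study's leukemia catalogues. They are called the kept regions here. They were chosen by measured overlap: a whole GMP region on chromosomes 1 to 19, leaving out chromosome 11 below position 3100000, counted as kept when it shared 1 bp or more with a region of the k+ list and with a region of the k- list. Of the 3332 GMP regions, 168 fell outside those chromosomes and limits (105 on X, 41 on Y and 22 at the start of chromosome 11), and 7 of the 168 met both leukemia lists as well. Of the remaining 3164 GMP regions, 31.7% (95% interval 30.1 to 33.4%) were kept in both lists, 7.78% (6.87 to 8.76%) met the k+ list only, 17.8% (16.4 to 19.1%) met the k- list only and 42.8% (41.0 to 44.5%) met neither and are called lost.

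The study set ChIP-seq libraries of 2 leukemia populations, leukemia stem cells and mature AML cells, beside those of GMP, with H3K27ac, H3K4me1, H3K4me3 and input libraries of each. All cells came from C57BL/6 bone marrow, and the leukemia cells were MLL-AF10 cells, described in the labels as grown in medium with fetal bovine serum and WEHI-conditioned medium. A further 12 libraries followed leukemia stem cells through 0, 24, 48 and 72 hours of the p300 and CBP inhibitor A-485, and have no region list of their own here. Each group was 1 sample, and from how many animals or leukemias it came was not stated. The lists name their leukemia populations k+ and k-, which the labels do not define; they may or may not refer to the receptor Kit, found on immature blood cells, and so the lists keep their own names here.

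GMP are committed progenitors that give rise to granulocytes and monocytes. Enhancers are stretches of DNA that raise the transcription of genes at a distance, and H3K27ac together with H3K4me1 is the usual sign of an active one, while H3K4me3 marks promoters. MLL fusion proteins such as MLL-AF10 keep a transcription program of self-renewal running in myeloid progenitors, and leukemia stem cells of this kind are known to resemble committed myeloid progenitors in many ways. Regions listed in GMP and in leukemia are shared here by position only, and no signal at them was compared.

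The lists gave a chromosome, a start and an end for each region, with no score, signal or read count. The depth behind a region is therefore unknown, all positions lay on a grid of 200 bp, and no region could be ranked by strength. The k+ list held 9404 regions and the k- list 13856. With 1 list per population there was no replicate error, and regions are not replicates, so no p-value is given. Shares carry exact Clopper-Pearson intervals, which cover counting error only and are too narrow because neighbouring regions depend on each other. Positions are in the mm9 build, counted from 1. Genes and DNA sequence at the regions were not analysed here.

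Being kept in 1 leukemia list went with being kept in the other. Of the 1249 GMP regions that met k+, 80.3% (78.0 to 82.5%) also met k-, against 29.3% (27.3 to 31.4%) of the 1915 that did not meet k+. Of the 1565 that met k-, 64.1% (61.7 to 66.5%) also met k+, against 15.4% (13.7 to 17.2%) of the 1599 that did not. These shares describe the overlap by which the regions were chosen and carry no test.

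The kept regions were the widest class of GMP regions. Their median width was 800 bp (quartiles 400 and 1400 bp, range 200 to 7000 bp), against 600 bp for regions kept in k+ only, 600 bp for those kept in k- only and 400 bp for lost regions. Together they covered 974 kb, against 703 kb covered by the 1353 lost regions. The rule itself favours width, since more bases can meet a leukemia region. The share kept in both was 17.0% (14.3 to 19.9%) of the 725 GMP regions of 200 bp, the narrowest width the grid allows. Among the 549 regions 800 to 1000 bp wide it was 34.4% (30.5 to 38.6%), and among the 102 that measured at least 2200 bp it was 71.6% (61.8 to 80.1%). The share kept in k+ only hardly varied with width, from 6.44% to 9.75% over the 7 width classes. The share kept in k- only lay between 12.7% and 20.04%. The share of lost regions was 60.3% at 200 bp and 8.82% at 2200 bp or more.

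**Figure D1:**
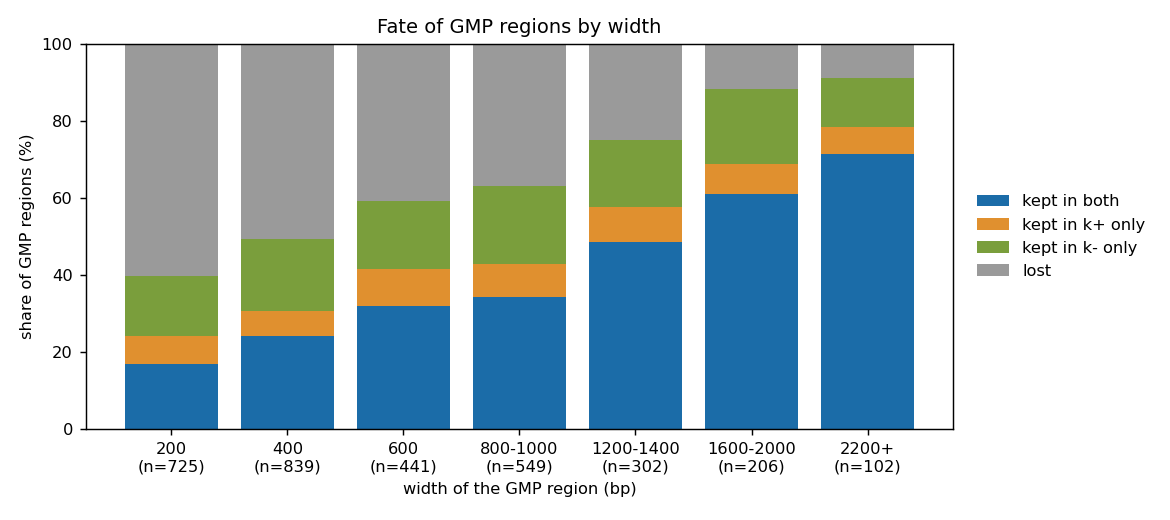
Share of GMP regions (y axis, percent) kept in both leukemia lists, in k+ only, in k- only or lost, by width of the GMP region (x axis, bp, with the number of regions in each class). The kept share is 17.0% at 200 bp and 71.6% at 2200 bp or more, while the shares of regions kept in a single list change little.

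Most of the DNA in the kept regions lay inside leukemia regions. The k+ list covered 76.2% of their bases, the k- list 82.4%, and at least 1 of the lists 90.1%. The k- list was also the larger in all, with 16623 kb on the same chromosomes against 10253 kb for k+. Bases in both leukemia lists at once, called the shared core, made up 68.6% of the kept regions, or 668 kb. In all, 637 kept regions lay wholly in k+ (63.5%, 60.4 to 66.5%), 720 wholly in k- (71.8%, 68.9 to 74.6%) and 554 wholly in the shared core (55.2%, 52.1 to 58.3%). These counts include the 123 kept regions of 200 bp, which on this grid are covered whole by the rule itself. Of the 880 wider ones, 58.4% (55.1 to 61.7%) lay wholly in k+, 67.8% (64.6 to 70.9%) wholly in k- and 49.0% (45.6 to 52.3%) wholly in the shared core. Within these 880 regions, k- covered 89.6% of the bases that lay in k+, against 58.2% of those that did not and 81.95% of all. Likewise k+ covered 82.7% of the bases that lay in k-, against 43.5% of those that did not and 75.6% of all. These shares describe regions chosen for their overlap with both lists, pooled over widths, and carry no test. Only 16 kept regions, between 400 and 2000 bp wide, had no base in both lists, so that k+ and k- met different parts of the same GMP region.

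Wide kept regions were less often retained from border to border than narrow ones. On the grid, the rule secures 200 bp of overlap with each list, which is a smaller share of a wide region. Some fall with width is therefore built in. Of the 204 kept regions of 400 bp, 77.9% (71.6 to 83.4%) lay wholly in the shared core, against 29.9% (22.7 to 38.0%) of the 147 that measured 1200 or 1400 bp and 23.3% (14.2 to 34.6%) of the 73 with at least 2200 bp. The median core was 800 bp in regions of 1200 to 1400 bp and 1600 bp in the widest class. In the 427 kept regions of 1000 bp or more, each divided into 5 equal parts, the middle part was covered best, by k+ at 76.7% of its bases and by k- at 81.7%. The parts on either side of it were covered by k+ at 71.6% and 75.6% and by k- at 80.3% and 81.1%. The outer parts were covered by k+ at 65.5% and 69.1% and by k- at 75.6% and 75.5%. No intervals were computed for these shares.

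Leukemia regions were usually wider than the GMP region they overlapped. The widest k+ partner of a kept region had a median width of 1800 bp (quartiles 1000 and 3200 bp) and the widest k- partner 2400 bp (quartiles 1400 and 3800 bp), against 800 bp for the kept regions themselves. The k+ partner was the wider of the pair for 74.3% (71.5 to 77.0%) of kept regions, and the k- partner for 83.5% (81.1 to 85.8%). Both partners were at least 3 times as wide as the GMP region for 381 kept regions, and both were narrower for 75. The median over the whole list on the same chromosomes was 800 bp for k+ and 800 bp for k-, and overlap by 1 bp favours wide regions. The partners of kept regions were also wider than those of regions kept in a single list: the k+ partner of regions kept in k+ only had a median of 1200 bp and the k- partner of regions kept in k- only one of 1400 bp. Among GMP regions of 200 bp alone, the median k+ partner was 2200 bp for kept regions against 1400 bp for those kept in k+ only, and the median k- partner 2400 bp against 1800 bp for those kept in k- only.

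The widths of the leukemia partners followed each other more closely than the width of the GMP region. Across the 1003 kept regions, Spearman's rho between k+ and k- partner width was 0.59. It was 0.063 between the kept region's width and its k+ partner's, and 0.089 for the k- partner's. The relation to the kept region's width did not run in 1 direction. The median k- partner was 2400 bp for kept regions of 200 bp, 2000 bp at 600 bp and 3400 bp at 2200 bp or more. The median k+ partner was 2200 bp at 200 bp, 1600 bp at 400 bp, 1800 bp from 600 to 2000 bp and 2600 bp in the widest class. These values are descriptions: the regions share lists and sometimes partners, and overlap chose both the regions and their partners. The k+ partner was narrower than the k- partner for 614 kept regions, wider for 309 and equal for 80, with a median ratio of k+ over k- width of 0.833.

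**Figure D2:**
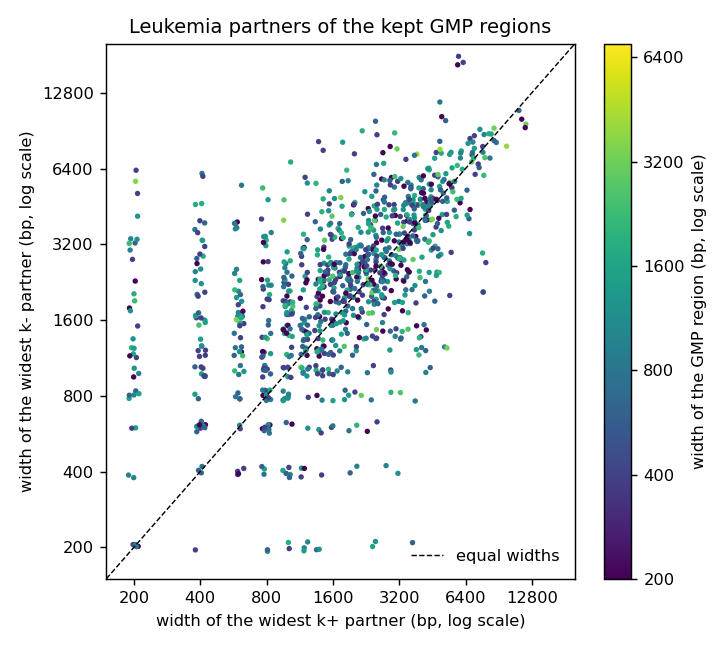
Width of the widest k+ partner (x axis) against that of the widest k- partner (y axis) for each of the 1003 kept regions, both in bp on log scales with a small random shift to separate points on the 200 bp grid, coloured by the width of the GMP region. Points spread along the dashed line of equal widths, 614 of them with a narrower k+ than k- partner, and dark (narrow) GMP regions occur at every partner width.

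Leukemia borders lay outside the GMP borders on most sides. A kept region lay inside a wider k+ region in 631 cases and inside a wider k- region in 718, had the same borders as its partner in 17 and 14, was the wider and enclosed the k+ region in 124 and the k- region in 72, and was shifted to 1 side in 231 and 199. Over the 2006 borders of the kept regions, the k+ border lay a median of 400 bp outside the GMP border (quartiles 0 and 1000 bp) and the k- border 600 bp outside (quartiles 200 and 1400 bp). The leukemia borders were closer to each other than to the GMP border: k+ and k- borders were within 200 bp of each other at 41.6% of borders, while the k+ border was within 200 bp of the GMP border at 31.8% and the k- border at 26.2%. Close agreement of all 3 lists was uncommon. An overlap that filled at least 50% of each of the paired regions was found with k+ for 315 kept regions, with k- for 262 and with both for 162, which is 16.2% (13.9 to 18.6%) of the kept regions and 5.12% of the 3164 GMP regions. At 75% of both regions, 26 kept regions remained.

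Several GMP regions could fall in 1 leukemia region. The kept regions met 927 different k+ regions, of which 82 held 2 kept regions and 7 held 3, and 927 different k- regions, of which 81 held 2 and 8 held 3. In all, 185 kept regions (18.4%) shared a k+ region with another kept region and 186 (18.5%) shared a k- region. Leukemia regions with 2 or 3 kept regions had a median width of 3600 bp (k+) and 4200 bp (k-), against 1600 bp (k+) and 2000 bp (k-) for those with 1. The reverse, a GMP region split in leukemia, was rare: 20 kept regions met 2 k+ regions, 21 met 2 k- regions and 4 met 2 of both, and no kept region met more than 2 regions of a list.

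Many regions lay near the threshold. For 259 kept regions the overlap with the list they shared least with was 200 bp, the smallest the grid allows, and 136 of these were wider than 200 bp. Just outside the rule, 51 of the 246 regions kept in k+ only touched a k- region without sharing a base, and 115 had a k- region within 1000 bp. Of the 562 regions kept in k- only, 49 touched a k+ region and 171 had a k+ region within 1000 bp.

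The 10 widest kept regions ranged from wholly retained to barely met. For the last places 3 regions tied at 3400 bp, and those first in chromosome order were taken, which left out 1 on chromosome 19. The widest lay on chromosome 7 in band qA3, from 29164601 to 29171600. Of its 7000 bp, the right-hand 4400 bp were covered by a k+ region of 4400 bp with the same right border and by a k- region of 4600 bp, while 2600 bp on the left lay in neither list. It had the longest shared core of all kept regions. The nearest other GMP region was 308.4 kb away.

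Regions of 4000 bp on chromosome 8 in band qE2, from 129225401 to 129229400, and on chromosome 17 in band qA3.3, from 26668801 to 26672800, were covered throughout by both lists. Leukemia regions there were broader than in GMP, with a k+ region measuring 9600 bp and a k- region measuring 8000 bp on chromosome 8, and 5000 and 7600 bp on chromosome 17. On chromosome 18 in band qE1, from 66635001 to 66638600, a region of 3600 bp also lay wholly in both lists, and all 3 lists shared its left border. On chromosome 2 in band qF1, from 126298201 to 126302400, a region of 4200 bp lay wholly in a k- region of 7000 bp, while 2 k+ regions covered 3400 bp of it. These 5 regions had the longest shared cores, from 3400 to 4400 bp.

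Other wide regions were retained unevenly between the leukemia lists. On chromosome 12 in band qE, from 103586201 to 103589800, a k- region of 5400 bp covered all 3600 bp of the GMP region, and a k+ region of 200 bp lay within it; 7 gained regions, leukemia regions without a GMP partner, lay within 12.5 kb. On chromosome 9 in band qC, from 63459201 to 63462600, k+ covered 1400 bp and k- all of the 3400 bp. On chromosome 15 in band qC, from 50526201 to 50529800, k+ covered 1200 bp in 2 pieces and k- covered 2600 of 3600 bp. On chromosome 12 in band qD1, from 83345801 to 83349400, each list covered 1200 of 3600 bp and they shared 800 bp. On chromosome 14 in band qC3, from 56722201 to 56725600, k+ covered 200 bp and k- 1200 bp at the left end of a GMP region of 3400 bp, so that most of this region was in neither leukemia list.

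At other places a narrow GMP region lay in a broad leukemia domain. The widest k- region with a kept region covered 17000 bp of chromosome 7 in band qD3, from 87918801 to 87935800. It held 3 kept regions of 400, 200 and 400 bp, all of which also lay in a k+ region of 6000 bp, from 87922601 to 87928600. The widest k+ region with a kept region covered 11600 bp of chromosome 1 in band qE4, from 132978801 to 132990400, beside a k- region of 9800 bp. It held 3 kept regions as well, of 3200, 200 and 200 bp. On chromosome 3 in band qG3, a kept region of 600 bp, from 131137001 to 131137600, lay at the right end of a k+ region of 11200 bp and a k- region of 10400 bp, and the 3 shared that right border. On chromosome 17 in band qE1.1, a kept region of 800 bp, from 66076001 to 66076800, lay in a k+ region of 4800 bp and a k- region of 12000 bp with a common left border.

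Joined among themselves, kept regions occurred mostly singly, as did GMP regions as a whole. Joining kept regions no more than 12.5 kb apart gave 830 clusters, of which 690 were single regions and 112 pairs. Another 24 had 3 regions, 3 had 4 and 1 had 5. Joining all 3164 GMP regions gave 2478 clusters, of which 1973 were single. Counting GMP regions of any class, 45.9% (42.7 to 49.0%) of kept regions had another within 12.5 kb. That share was 36.2% for k+ only, 35.4% for k- only and 32.7% for lost regions. In clusters of 3 or more lay 8.87% (7.19 to 10.8%) of the kept regions, against 14.1% (12.9 to 15.4%) of all 3164 GMP regions, the longer list. Counted the other way, GMP regions with GMP neighbours were more often kept: 27.5% (25.6 to 29.6%) of those that stood alone, 37.4% (33.9 to 41.0%) of those in pairs and 40.7% (36.1 to 45.4%) of those in GMP clusters of 3 or more. Of the 505 GMP clusters of 2 or more regions, all regions were kept in 104, some in 176 and none in 225. Regions of a cluster could meet the same leukemia region and so be kept together. With k+ and k- regions merged, 205 kept regions shared a leukemia region with another kept region. The shares by cluster size were not weighted for width.

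The cluster with the most kept regions lay on chromosome 9 in band qC, from 65382601 to 65400400. It held 5 kept regions of 400 to 1600 bp within 17.8 kb. The span was 56.2% k+ and 66.3% k-, against 29.2% GMP, with 4 k+ regions, 3 k- regions and no gained region. Here 2 of the kept regions met the same k+ region, and each k- region but the last met 2. On chromosome 16 in band qC4, from 95658201 to 95675800, 4 kept regions lay beside another GMP region that was not kept in both. At its right side a k+ region of 7000 bp and a k- region of 7400 bp each bridged 3 GMP regions. On chromosome 5 in band qA1, from 3490601 to 3503200, 4 kept regions of 200 to 2000 bp filled 46.03% of the span, k+ 77.8% and k- 69.8%. This cluster lies near the start of its chromosome, where mapping of reads was not tested.

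On chromosome 6 in band qG1, from 134064201 to 134083800, 4 kept regions lay in 19.6 kb, 3 of them bridged by a k+ region of 6800 bp and a k- region of 8000 bp. This span also held 2 gained regions. Of the 24 clusters with 3 kept regions, the one with the largest summed width lay on chromosome 2 in band qF1, from 126291801 to 126303200. Its kept regions together measured 6400 bp and included the second widest of all. The k+ list filled 89.5% of its 11.4 kb and the k- list 75.4%, against 56.1% for GMP.

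**Figure D3:**
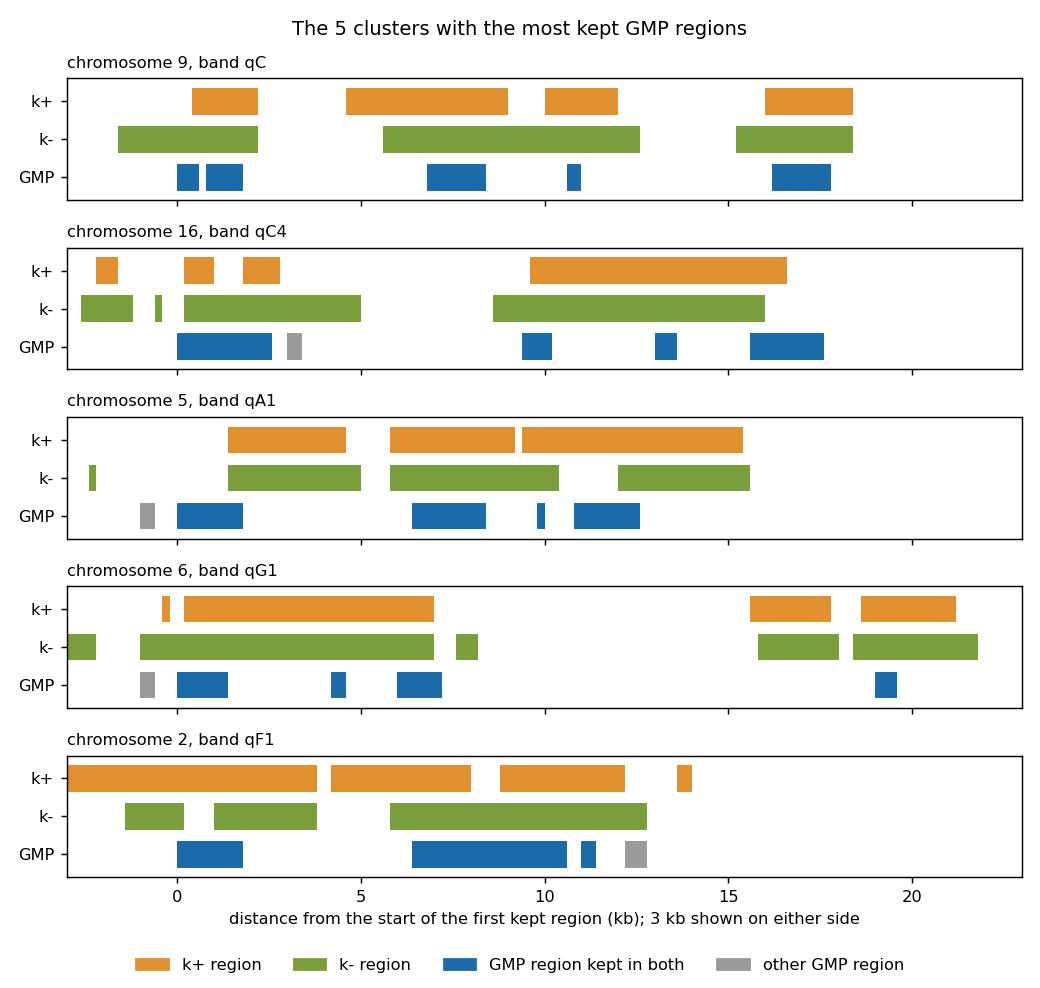
Maps of the 5 clusters with the most kept regions (clusters of 3 ranked by summed width): k+ regions, k- regions and GMP regions (rows) by distance from the start of the first kept region (x axis, kb), cut off 3 kb beyond the cluster on either side. Kept regions are blue and other GMP regions grey. In these clusters, picked for their many kept regions, leukemia regions are often broader and some bridge several GMP regions, as in band qC4 of chromosome 16. Of all 927 k+ regions that met a kept region, 838 met only 1, as did 838 of the 927 k- regions.

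The surroundings of kept regions held more leukemia regions than those of other GMP regions. In the first 200 bp outside the border, 67.9% (65.9 to 70.0%) of flanks of kept regions lay in k+, against 58.1% (53.6 to 62.5%) for regions kept in k+ only. In k- the shares were 76.9% (75.01 to 78.7%) for kept regions and 67.1% (64.2 to 69.8%) for regions kept in k- only. These near flanks belong mostly to the partners that the rule asked for. Flanks at every distance were scored in the same lists that set the classes, and partners were not removed. A partner can reach beyond 5 kb, as on chromosome 3, where a k+ region extended 10600 bp beyond the kept region's left border. Farther out, over the 25 bins from 5 to 10 kb, a mean of 7.11% of flanks of kept regions lay in k+, against 4.95% for regions kept in k+ only, 3.68% for those kept in k- only and 2.64% for lost regions. Kept regions were higher than k+ only regions in all 25 bins, but the intervals were apart in 4 of them, whereas they were apart from k- only and from lost regions in all 25. In k-, the mean was 9.81% for kept regions, against 5.86% for k+ only, 6.75% for k- only and 4.42% for lost regions. The intervals in k- were apart from k+ only in 14 bins, from k- only in 12 and from lost regions in 25. Adjacent bins can lie in the same leukemia region, so the 25 bins are not separate observations. Each interval also counts both flanks of a region as separate.

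**Figure D4:**
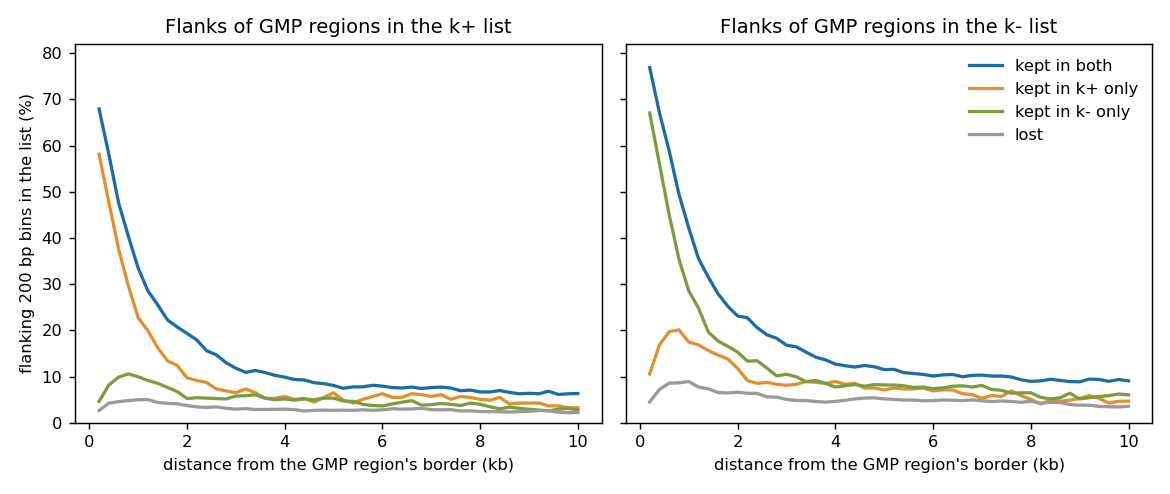
Share of flanking 200 bp bins that lie in the k+ list (left) and in the k- list (right), in percent, by distance from the border of the GMP region (x axis, kb), for regions kept in both lists, in k+ only, in k- only and lost. The line for kept regions starts at 67.9% in k+ and 76.9% in k- and is still the highest at 10 kb, at 6.33% and 9.07%.

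Gained regions were found more often near kept than near lost regions. The interval of kept regions overlapped that of regions kept in k+ only. The gained list did not enter the rule, but its regions are leukemia regions without a GMP partner. It thus shares the k+ and k- lists with the rule, and the contrast is not independent of how the classes were chosen. Within 12.5 kb, 72.4% (69.5 to 75.1%) of kept regions had a gained region, against 64.2% (57.9 to 70.2%) of regions kept in k+ only, 62.6% (58.5 to 66.6%) of those kept in k- only, 53.9% (51.2 to 56.6%) of lost regions and 62.1% of all 3164 GMP regions. With each class weighted to the widths of the kept regions, the shares were 65.5% for k+ only, 62.9% for k- only and 54.2% for lost regions. Among GMP regions of at least 800 bp they were 71.6% (67.6 to 75.4%) for kept regions, 68.04% (57.8 to 77.1%) for k+ only, 66.2% (59.5 to 72.5%) for k- only and 55.9% (50.2 to 61.5%) for lost regions, so that there the interval of kept regions overlapped those of both single-list classes. Within 5 kb the classes were close together, at 46.7% of kept regions, 43.1% of k+ only, 43.1% of k- only and 42.1% of lost regions. The partner of a kept region takes up part of this space and is by definition not gained. Dense gained domains were not where kept regions lay more often: 12.1% (10.1 to 14.2%) of kept regions fell in the span of a cluster of 3 or more gained regions, against 11.4% (7.70 to 16.0%) of k+ only, 11.2% (8.72 to 14.1%) of k- only and 14.0% (12.2 to 16.0%) of lost regions. The domain with the most gained regions, 21 on chromosome 2 from 169968801 to 170050400, held 5 GMP regions, none of them kept in both. Of all 3164 GMP regions 31.7% were kept, and 5 regions are too few to tell a difference from that share.

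Kept regions had a kept region as their nearest GMP neighbour more often than other GMP regions did. The nearest other GMP region was also kept in both for 49.8% (46.6 to 52.9%) of them and for 34.45% (32.8 to 36.1%) of all 3164 GMP regions, against 29.3% (23.7 to 35.4%) for regions kept in k+ only, 29.5% (25.8 to 33.5%) for those kept in k- only and 26.1% (23.8 to 28.5%) for lost regions. The median distance to that neighbour was 17.0 kb for kept regions, 27.2 kb for k+ only, 36.0 kb for k- only and 44.2 kb for lost regions. Some of these neighbours met the same leukemia region. Leaving out regions whose nearest GMP region met the same merged leukemia region, which by construction takes out kept neighbours of kept regions and leaves lost regions as they were, the share was 39.4% (35.9 to 42.9%) for kept regions, against 28.1% (22.2 to 34.6%) for k+ only, 28.2% (24.2 to 32.4%) for k- only and 26.1% for lost regions. Where the nearest GMP region was over 12.5 kb away, it was 39.2% (35.1 to 43.5%) for kept regions, against 28.7% (21.7 to 36.4%) for k+ only, 29.2% (24.6 to 34.2%) for k- only and 29.2% (26.3 to 32.3%) for lost regions. At that distance the intervals of kept and k+ only regions overlapped. The fate of the neighbour was read from the same lists as that of the region itself.

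**Figure D5:**
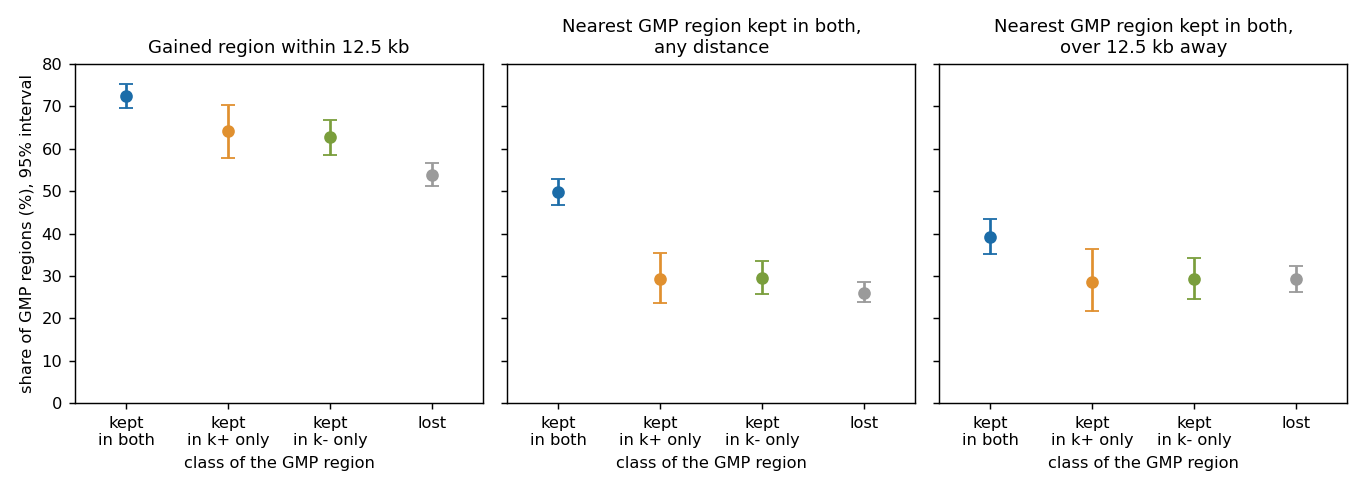
Share of GMP regions (y axis, percent, with exact 95% intervals) with a gained region within 12.5 kb (left), with a nearest other GMP region kept in both lists at any distance (middle) and over 12.5 kb away (right), by class of the GMP region (x axis). Kept regions are highest in each panel, at 72.4%, 49.8% and 39.2%.

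Kept regions lay on all 19 chromosomes, from 21 on chromosome 18 to 84 on chromosome 1. The share of GMP regions kept in both had an interval that left out the overall 31.7% on 3 of the 19. It was 40.7% (32.7 to 49.0%) on chromosome 9, 25.2% (19.7 to 31.5%) on chromosome 11 and 19.9% (14.1 to 26.8%) on chromosome 13. Among GMP regions of at least 800 bp, of which 46.2% were kept, chromosome 9 no longer stood apart, at 54.8% (41.7 to 67.5%), while chromosome 11 had 28.2% (18.6 to 39.5%) and chromosome 13 had 28.4% (18.01 to 40.7%). With 19 intervals looked at, and no test between them, these are descriptions. By chromosome band, 48.5% (45.3 to 51.6%) of kept regions lay in Giemsa-negative bands, the light and gene-rich ones, against 46.6% (44.9 to 48.4%) of all GMP regions, and these bands make up 41.2% of the 19 chromosomes. The darkest bands make up 31.2% of them and held 19.7% (17.3 to 22.3%) of kept and 21.3% (19.9 to 22.7%) of all GMP regions. The share of GMP regions that was kept was 32.9% (30.6 to 35.4%) in the light bands and 29.4% (26.0 to 33.02%) in the darkest, with overlapping intervals.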

How the data were processed

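The authors deposited 6 region lists, made from a series of 24 libraries, each with 3 columns of positions in bp (chromosome, start and end) and 0 columns of values. The other units of a peak file, such as a score, were not used here. Per the submitters' processing notes, BWA, Picard, MACS2, HOMER and deepTools and the build mm9 were used; not given in the sources used here are their order, settings and versions, and how a region came to count as an enhancer. How depth and thresholds differed between libraries could set the lengths of the lists and so which GMP regions count as kept.

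Overlap of 1 bp or more was computed in Python 3.11.15 with SciPy 1.17.1, NumPy 2.4.6 and pandas 2.3.3 (plots: matplotlib 3.10.9), tested on simulated data and checked with bedtools 2.31.1, which also found 1003 kept regions. Chromosome bands came from circlize 0.4.16 in R 4.3.3. Partners are whole leukemia regions that overlap a GMP region. Where there are 2, the widest counts for partner widths, and the outer borders of the pair count for borders. Clusters join regions no more than 12.5 kb apart. The regions named are the 10 widest, those with the 5 longest shared cores, the 5 widest k+ and 5 widest k- partners, and the 5 clusters with the most kept regions, with ties taken by chromosome and start, or for clusters by summed width; the gained domain on chromosome 2 was named after its values were seen. The kept regions, the classes and the rules for naming were chosen with earlier results of these data known. Alternatives covered the overlap asked for, region width, distances and chromosomes. A gene table at hand is for GRCm38, and positions were not converted between builds.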

Additional observations from a re-analysis of the deposited data

How the results depend on the processing

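No paired analysis was possible because the groups hold 1 sample each, and leaving out a replicate was likewise not applicable. Sequence content and genes near regions were not run. Of 58 alternative values, 30 stayed within the interval of the value reported (counts: within 1.5 times) and 28 did not. Each is a single count, share or median, so changes in the order of classes were not scored. Some of the 28 asked for another distance or overlap, which changes the measure itself. The weighting by width, the exclusion of neighbours in the same leukemia region the use of 1 kept region per leukemia region and the exclusion of kept regions of 200 bp were added after seeing the data. The number kept fell to 162 with 50% of both regions shared and to 434 when GMP, k+ and k- regions alike had to measure at least 800 bp, and stayed between 820 and 1446 under the other 4 alternatives. Coverage by k+, k- and both was 72.7%, 79.9% and 64.3% in the 535 kept GMP regions of at least 800 bp. These were taken whatever the width of their partners. Coverage was 88.3%, 91.7% and 84.1% in kept regions with at least 50% in each list, whose median width was 600 bp. That choice leaves out the least covered regions, so these shares rise by construction. Sharing of 25% or 75% of both regions was met by 47.96% and 2.59%. Joining at 5 and 25 kb put 5.28% and 12.1% of kept regions and 6.92% and 21.4% of all GMP regions in clusters of 3 or more. A gained region lay within 5 and 25 kb of 46.7% and 83.6% of kept regions, 43.1% and 78.9% of k+ only, 43.06% and 75.8% of k- only and 42.1% and 64.9% of lost regions. The nearest GMP region was kept for 62.2% of kept and 19.6% of lost regions within 12.5 kb, 39.2% and 29.2% farther away, and 39.4% of kept regions outside shared leukemia regions; by construction the last leaves out neighbours that 1 leukemia region joins. Otherwise the cause was not tested. The lists hold no depth, so how far it set these values is unknown.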
